A study of Mus musculus with 12 samples.

Results

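Wild-type (WT, eIF2α+/+) mouse embryonic stem cells grown for 6 days with leukaemia inhibitory factor alone (LIF) were compared with WT cells grown with LIF plus 2 inhibitors (LIF/2i). The comparison took every WT RNA-seq library, 6 of the 12 in the series, and every gene that passed a count filter, 13229 of 22416. The inhibitors were PD0325901, which blocks the ERK pathway kinase MEK, and CHIR99021, which blocks GSK3 and so stabilises β-catenin. Both media were serum-free with a serum replacement and LIF, so the inhibitors were the difference between the groups as far as the labels say. The other 6 libraries came from knock-in (KI, eIF2α A/A) cells in the same media. There both alleles encode an eIF2α that stress kinases cannot phosphorylate. The labels name no cell line, clone or sex. Nor do they tell whether the replicates are separate cultures, and the spread behind the p-values may then be technical.

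LIF/2i is known for holding mouse embryonic stem cells in the naive state, which resembles the epiblast of the early blastocyst. MEK inhibition silences the ERK signal by which FGF4 primes the cells for differentiation, and GSK3 inhibition relieves repression of naive genes by TCF7L1 and turns on Wnt target genes. Without the inhibitors, cultures are known to become heterogeneous, ERK target genes come on, and DNA methylation, which is low in LIF/2i, rises.

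The LIF/2i libraries held 3234713 to 7738055 counts and the LIF libraries 6092300 to 6376905. LIF replicates 1 and 3 differed by less than sampling noise (chi-square per degree of freedom 0.858 over 12373 genes, against 9.92 to 13.8 for the other WT pairs) and their mean was used as 1 sample. LIF therefore had n = 2, called here LIF replicate 2 and the LIF pair, and LIF/2i had n = 3. The 10 embryonic stem cell markers checked, Pou5f1, Sox2 and Nanog among them, were present at 13.5 CPM or more in all 5 samples. CPM are counts scaled to a common library total and adjusted by the trimmed mean of M-values (TMM). The transcripts of 4 Y-linked genes, as CPM of the library total, summed to 44.8 and 77.6 in replicate 2 of LIF/2i and LIF, and to 156 to 261 in the other WT libraries. The part of that difference in any result was not tested.

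Removing the inhibitors changed 1714 genes, 13.0% of those tested. In LIF, 834 genes were higher (6.30%) and 880 were lower (6.65%) than in LIF/2i by edgeR's quasi-likelihood test at a Benjamini-Hochberg adjusted p of 0.05, the threshold for a "called" gene throughout. The changes upward were larger. The median log2 fold change of the called genes was 2.01 upward against -1.33 downward, and 418 genes rose more than 4-fold while 237 fell by as much. The groups did not overlap for 833 of the higher and 878 of the lower genes. With 2 samples against 3 this is common, since over all tested genes both LIF samples lay above LIF/2i for 24.2% and below it for 24.5%. In all, 3633 genes had an unadjusted p under 0.05. The calls depended on LIF replicate 2, without which the LIF pair alone stood for its group and 201 genes were called higher and 189 lower, 197 and 187 of them also called with all samples. Without LIF/2i replicate 1 the counts were 381 and 465, without LIF/2i replicate 2 they were 440 and 615, and without the LIF pair 439 and 327. Of the 834 higher genes 833 kept their sign without LIF replicate 2, as did all 880 lower genes. The other higher gene, Plac1, had no fitted value there. Since the groups of called genes rarely overlapped, a kept sign was nearly given and does not measure how firm the calls are.

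**Figure D1:**
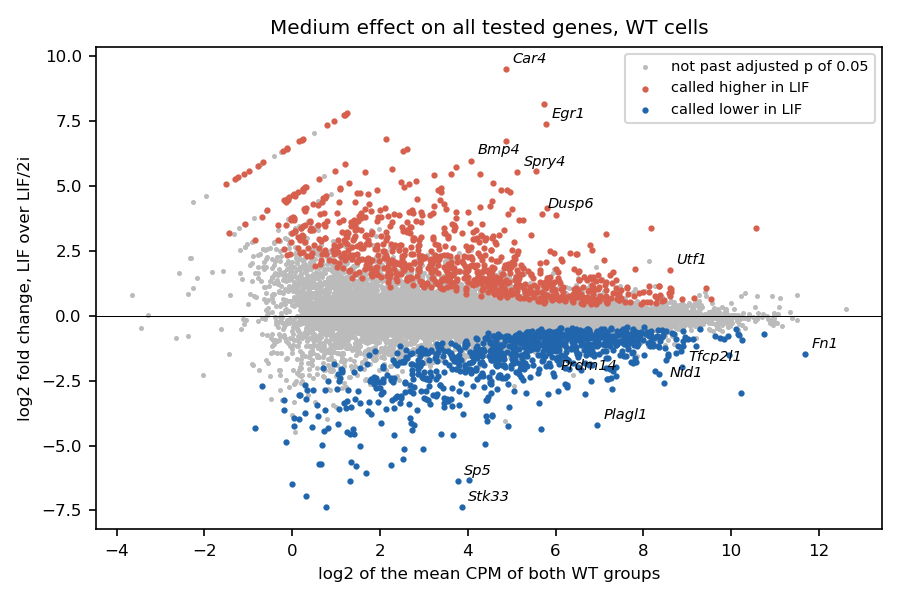
Log2 fold change of LIF over LIF/2i in WT cells (vertical axis) against the log2 of the mean CPM of both groups (horizontal axis), with 1 point per tested gene. The 834 genes called higher (red) reach larger changes than the 880 called lower (blue), and the straight rows of red points at the upper left are genes with few or no counts in LIF/2i.

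The genes with the largest increases included a membrane carbonic anhydrase, matrix and cytoskeletal genes, and transcription factors of ERK signalling and of extraembryonic and mesodermal cells. Values below are given for LIF/2i replicates 1, 2 and 3 in that order, and then for LIF replicate 2 and the LIF pair. Car4, the carbonic anhydrase, measured 0, 0 and 0.304 CPM in LIF/2i against 88.2 and 28.6 CPM in LIF. With 1 count in all of LIF/2i, its ratio was 1010 (exact 95% interval 181 to 40000, counting error only). Hand1, a transcription factor of trophoblast and mesoderm, measured 0.158, 0 and 0.304 CPM against 16.8 and 7.36 CPM, a ratio of 105 (28.5 to 873). Both genes were at the limit of detection with the inhibitors and present in both LIF samples. Arap3, a GTPase-activating protein for small GTPases, measured 0.316, 0.400 and 0.912 CPM in LIF/2i against 37.7 and 14.6 CPM in LIF (log2 fold change 5.71 ± 0.65 (SE), adjusted p = 0.000492). Its groups were also far apart. The other 7 of the 10 genes with the largest increases were Col1a2, Egr1, Cdh6, Tagln, Csf1, Bmp4 and Cacna1g. Cdh6, Csf1 and Cacna1g lost their calls without LIF replicate 2 (adjusted p = 0.0582, 0.149 and 0.145), and Cacna1g also without LIF/2i replicate 1 (0.0558). By limma-voom Csf1 and Cacna1g also missed the threshold (0.0529 and 0.0632).

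The genes with the largest decreases were nearly silent in LIF. Stk33, a serine/threonine kinase, measured 39.2, 26.2 and 21.9 CPM in LIF/2i against 0.152 and 0.158 CPM in LIF, a ratio of 195 (53.7 to 1610). Trpm1, a cation channel, measured 46.1, 45.4 and 5.47 CPM against 0.606 and 0.158 CPM (log2 fold change -6.33 ± 0.99, adjusted p = 0.00246). Hoxc12, a posterior homeobox gene, measured 10.9, 13.1 and 3.95 CPM against 0 and 0.317 CPM, a ratio of 67.9 (18.5 to 565). In each of these genes the groups were apart, and LIF/2i replicate 3 was the lowest of its group. That replicate was lowest for each of the 10 genes with the largest decreases, which also held Sp5, Tlx2, Sash3, Srarp, Exph5, Gpld1 and Slc22a13. Without LIF replicate 2 the adjusted p was 0.0503 for Stk33 and from 0.0511 to 0.125 for Sp5, Tlx2, Sash3, Srarp, Exph5 and Gpld1. Without the LIF pair, Sp5, Tlx2, Sash3 and Srarp reached 0.0601 to 0.147, and Tlx2 reached 0.0639 without LIF/2i replicate 1. By limma-voom Sp5 and Tlx2 reached 0.0853 and 0.0602.

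ERK feedback and immediate early genes rose, with the feedback inhibitors of the pathway in the lead. Of 29 tested members 11 were called higher and 0 lower, with a median log2 fold change of 1.30 over the 29 against 0.01 over all tested genes. With a library left out, 6 or more remained higher (6 without LIF replicate 2, LIF/2i replicate 1 or LIF/2i replicate 2, and 7 without the pair). Spry4, a Sprouty inhibitor of receptor signalling, measured 1.58, 2.00 and 0.304 CPM in LIF/2i against 54.9 and 82.5 CPM in LIF (log2 fold change 5.53 ± 0.52, adjusted p = 0.000226). Dusp6, the phosphatase that inactivates ERK in the cytoplasm, measured 7.74, 6.00 and 5.17 CPM against 79.9 and 113 CPM (3.91 ± 0.32, adjusted p = 9.51e-05). Dusp4, a nuclear phosphatase of the same family, measured 0.474, 0.666 and 1.22 CPM against 18.6 and 21.8 CPM (4.77 ± 0.46, adjusted p = 0.000226). All 3 inhibitors were at 7.74 CPM or less in every LIF/2i sample and at 18.6 CPM or more in both LIF samples. Spry4 and Dusp4 varied among the LIF/2i samples, but by far less than the distance to LIF. They kept their calls whichever library or the pair was left out. Myc, an immediate early gene that is also a Wnt target, measured 6.79, 3.33 and 1.82 CPM against 36.4 and 29.8 CPM (2.98 ± 0.46, adjusted p = 0.00228). It kept its call in the same way.

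Egr1, the immediate early transcription factor, separated the LIF samples from each other. It measured 0.632, 0.666 and 0.608 CPM in LIF/2i against 8.34 CPM in LIF replicate 2 and 210 CPM in the LIF pair (log2 fold change 7.36 ± 1.17, adjusted p = 0.00256). The increase was 8.30 without LIF replicate 2 and 3.66 without the pair, called both times, but limma-voom in place of edgeR gave 5.82 and ended the call (adjusted p = 0.128). Fos had a similar order, with 0.790, 0.533 and 4.26 CPM against 4.40 and 13.5 CPM, but was not called (2.47 ± 0.78, adjusted p = 0.0561). Egr2 and Egr3, which did not pass the count filter, had 0 counts in LIF/2i and 3.01 and 2.06 CPM in the LIF pair.

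Not every ERK-responsive gene moved. Spry2, another Sprouty gene, measured 259, 220 and 181 CPM in LIF/2i against 202 and 312 CPM in LIF (log2 fold change 0.22 ± 0.21, adjusted p = 0.56), and its groups overlapped. Etv5, an ETS factor downstream of FGF signalling, measured 69.2, 87.7 and 64.8 CPM against 97.3 and 98.1 CPM (0.40 ± 0.16, adjusted p = 0.121). Etv4, its relative, measured 32.1, 42.2 and 7.30 CPM against 73.2 and 121 CPM (1.79 ± 0.63, adjusted p = 0.0845). The Etv groups did not overlap, but neither difference passed the threshold. The other called members were Spred1, Dusp5, Fosl2, Jun, Junb and Phlda1, with log2 fold changes of 1.30 to 3.05. Their calls were lost when libraries were left out, with adjusted p of 0.0736 to 0.237 without LIF replicate 2 for Dusp5, Fosl2, Jun, Junb and Phlda1. Without LIF/2i replicate 1 those 5 reached 0.0547 to 0.127, without LIF/2i replicate 2 they reached 0.0522 to 0.128, and without the pair Spred1, Dusp5, Jun and Junb reached 0.0581 to 0.173.

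Among FGF ligands and receptors, 1 of 15 tested members was higher and 1 lower (6.67% each way), which is near the 6.30% and 6.65% of all tested genes. Fgfr2, a receptor used by extraembryonic lineages, measured 3.79, 2.93 and 9.73 CPM in LIF/2i against 75.9 and 56.1 CPM in LIF (log2 fold change 3.69 ± 0.64, adjusted p = 0.00399). Fgf4, the main FGF ligand of embryonic stem cells, measured 174, 202 and 258 CPM against 125 and 128 CPM and was not called (-0.74 ± 0.33, adjusted p = 0.165). The receptor was thus high in both LIF samples, while the ligand was somewhat lower there without passing the test. Fgf3 was the member called lower (-2.56 ± 0.69, adjusted p = 0.0299), a call lost without LIF replicate 2 (0.14), either of LIF/2i replicates 1 and 2 (0.0705 and 0.0656) or the pair (0.193).

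**Figure D2:**
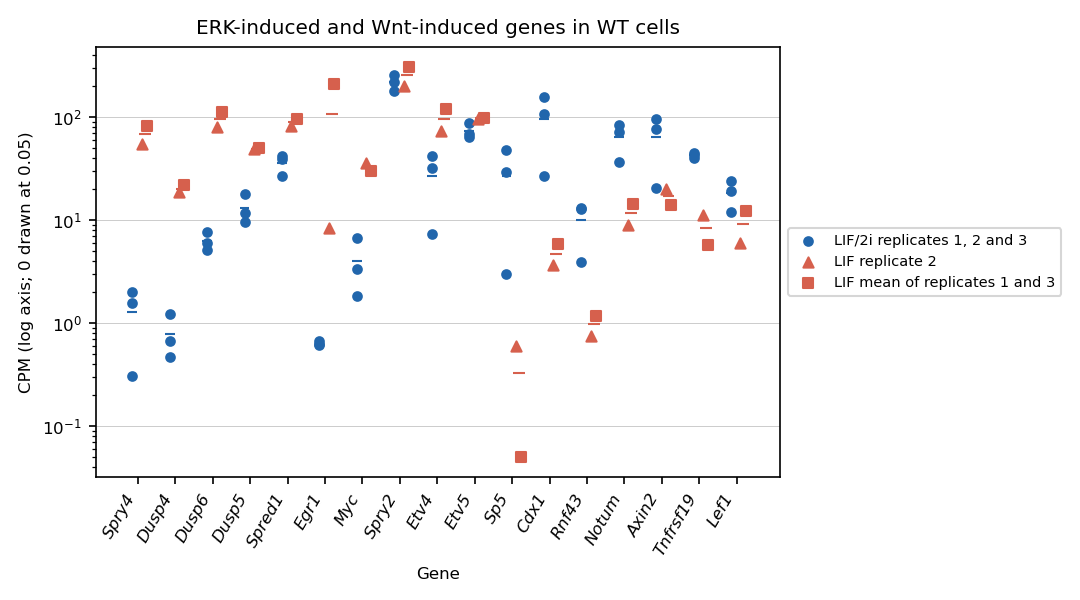
CPM (log axis) of ERK-induced genes (left) and Wnt-induced genes (right) in the 3 LIF/2i samples (blue circles), LIF replicate 2 (red triangles) and the mean of LIF replicates 1 and 3 (red squares), with short lines at group means. Spry4, Dusp4 and Dusp6 are high in both LIF samples, Egr1 in the LIF pair above all, and Sp5, Cdx1, Rnf43 and Notum are low in both.

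The list of Wnt target and feedback genes was mixed. Of 23 tested members 7 were called lower and 4 higher, with a median log2 fold change of -0.21, and 12 were not called. The lower calls were 1 without LIF replicate 2, 3 without the pair and 5 without LIF/2i replicate 1 or 2, and the higher calls 1, 1, 3 and 1. Sp5, a transcription factor turned on directly by β-catenin, measured 48.0, 29.7 and 3.04 CPM in LIF/2i against 0.606 and 0 CPM in LIF (-6.37 ± 1.26, adjusted p = 0.0073). Its fitted change ran from -5.45 without the pair to -10.29 without LIF replicate 2, and was past the threshold in neither (adjusted p = 0.0664 and 0.0513). The Sp5 promoter is shown because Sp5 had the largest change among the called Wnt genes with a promoter that can be shown. It was searched for letters to which TCF/LEF factors, the DNA-binding partners of β-catenin, are known to bind. The RefSeq window of 250 bases before to 50 after the start lies at chr2:70474673-70474972 (GRCm38.p6, plus strand, 5′ to 3′). It holds the motif CTTTGA, in capitals, at positions -204 and -104 from the start, whereas 16.0% of the 32851 windows in the RefSeq table hold it on either strand. The windows of the called list members Axin2, Rnf43, Tnfrsf19, Fzd7, Lgr4 and Rspo1 hold 0 matches. That of T, which was not called, holds 1. A match is a description of the letters only.
Sp5: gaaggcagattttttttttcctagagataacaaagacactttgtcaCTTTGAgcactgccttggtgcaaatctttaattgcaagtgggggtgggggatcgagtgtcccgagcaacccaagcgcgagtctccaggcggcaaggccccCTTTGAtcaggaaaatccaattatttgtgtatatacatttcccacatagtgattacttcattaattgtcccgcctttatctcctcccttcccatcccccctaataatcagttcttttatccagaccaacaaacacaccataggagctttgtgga

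The other 6 Wnt list members called lower were Cdx1, Notum, Rnf43, Axin2, Tnfrsf19 and Znrf3. Cdx1, a caudal homeobox gene induced by Wnt, measured 157, 108 and 27.1 CPM in LIF/2i against 3.64 and 5.86 CPM in LIF (log2 fold change -4.36 ± 0.86, adjusted p = 0.00725). Notum, a secreted enzyme that inactivates Wnt proteins, measured 84.7, 71.4 and 36.8 CPM against 8.94 and 14.4 CPM (-2.47 ± 0.53, adjusted p = 0.0102). Rnf43, a ubiquitin ligase that removes Wnt receptors, measured 13.3, 12.8 and 3.95 CPM against 0.758 and 1.19 CPM (-3.36 ± 0.67, adjusted p = 0.00719). For each of the 3 genes the groups were apart, with LIF/2i replicate 3 lowest in its group. Axin2, the scaffold of the β-catenin destruction complex, measured 96.7, 76.7 and 20.4 CPM against 20.2 and 14.1 CPM (-1.93 ± 0.49, adjusted p = 0.0237). LIF/2i replicate 3 was nearly as low as LIF replicate 2 for that gene. Tnfrsf19, a receptor gene under Wnt control, measured 45.2, 43.4 and 40.4 CPM against 11.2 and 5.70 CPM (-2.34 ± 0.31, adjusted p = 0.00105) and kept its call whichever library was left out. The calls of Cdx1, Notum, Rnf43, Axin2 and Znrf3 were lost without LIF replicate 2 (adjusted p = 0.091, 0.122, 0.0936, 0.108 and 0.135) and those of Cdx1, Axin2 and Znrf3 without the pair (0.0509, 0.172 and 0.16). Axin2 and Znrf3 also missed the threshold without LIF/2i replicate 1 (0.084 and 0.094) or replicate 2 (0.0615 for both), and Axin2 by limma-voom (0.0522).

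The Wnt list members called higher were Myc, the receptor genes Fzd7 and Lgr4, and Rspo1, a secreted activator of the pathway. Fzd7 measured 52.4, 49.3 and 47.1 CPM in LIF/2i against 90.8 and 96.1 CPM in LIF (log2 fold change 0.91 ± 0.23, adjusted p = 0.0213). Lgr4 measured 162, 127 and 125 CPM against 217 and 203 CPM (0.61 ± 0.17, adjusted p = 0.0335). These 2 receptor genes changed less than 2-fold, and they missed the threshold without LIF replicate 2 (0.107 and 0.202), LIF/2i replicate 2 (0.0667 and 0.111) or the pair (0.119 and 0.115). Fzd7 also missed it without LIF/2i replicate 1 (0.0637) and Lgr4 without LIF/2i replicate 3 (0.0807). Rspo1 had 2 counts in all of LIF/2i and a ratio of 15.9 (exact 95% interval 3.95 to 139). Its call was lost without LIF/2i replicate 2 or 3, LIF replicate 2 or the pair (0.0584 to 0.171). Lef1, a Wnt-induced transcription factor, measured 24.2, 19.3 and 12.2 CPM against 6.06 and 12.3 CPM and was not called (-1.03 ± 0.60, adjusted p = 0.303).

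Factors of naive pluripotency fell together. Of 20 tested members 11 were called lower and 0 higher, 18 had a negative fold change, and the median log2 fold change was -0.64. Tfcp2l1, a transcription factor at which LIF and GSK3 inhibition converge, measured 881, 897 and 481 CPM in LIF/2i against 182 and 201 CPM in LIF (-1.98 ± 0.26, adjusted p = 0.00114). Prdm14, which represses FGF receptor and DNA methyltransferase genes, measured 102, 103 and 108 CPM against 17.3 and 24.3 CPM (-2.33 ± 0.29, adjusted p = 0.000854). Klf2, a factor that ERK signalling destabilises, measured 627, 521 and 521 CPM against 198 and 206 CPM (-1.46 ± 0.21, adjusted p = 0.00154). These 3 genes had no overlap between the groups and kept their calls whichever library or the pair was left out. Nanog, a central factor of the naive network, fell less, from 458, 472 and 544 CPM to 294 and 327 CPM (-0.66 ± 0.15, adjusted p = 0.0164). Tbx3 and Klf4, which act downstream of LIF, had log2 fold changes of -1.26 ± 0.22 and -0.93 ± 0.18. Nanog, Tbx3 and Klf4 missed the threshold without LIF replicate 2 (adjusted p = 0.155, 0.0538 and 0.0984), and Nanog also without the pair (0.0654). The other called members were Tcl1, Nr5a2, Pecam1, Nr0b1 and Zfp42, at -0.63 to -1.40. The 3 members still called without LIF replicate 2 were Tfcp2l1, Prdm14 and Klf2, and 7 were called without LIF/2i replicate 1. Tcl1, Nr5a2 and Nr0b1 were lost there (0.0553, 0.0625 and 0.0915), and Nr5a2 and Nr0b1 also without LIF/2i replicate 2 (0.0667 and 0.0608). Zfp42 also lost its call without any of the 3 LIF/2i libraries or the pair (0.0502 to 0.159).

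The core of the pluripotency network changed far less. Pou5f1, which encodes OCT4, measured 887, 887 and 930 CPM in LIF/2i against 714 and 794 CPM in LIF (log2 fold change -0.26 ± 0.15, adjusted p = 0.297). Sox2, its partner, measured 618, 599 and 761 CPM against 519 and 492 CPM (-0.38 ± 0.18, adjusted p = 0.182). Esrrb, a naive factor held up by GSK3 inhibition, measured 492, 476 and 401 CPM against 333 and 365 CPM (-0.39 ± 0.17, adjusted p = 0.159). In each of these genes both LIF samples lay below all 3 LIF/2i samples, but no difference passed the adjusted threshold. With all 12 libraries counted separately and the replicate number as a block, edgeR called Esrrb and Sox2 lower (adjusted p = 0.0257 and 0.0314). Of 13 tested core members 2 were called, both higher, and the median was 0.05. Utf1, a chromatin factor of pluripotent cells, measured 176, 180 and 179 CPM against 627 and 574 CPM (1.75 ± 0.24, adjusted p = 0.0013). Lin28a, the RNA-binding protein that blocks let-7 maturation, measured 6.32, 5.46 and 6.08 CPM against 137 and 73.0 CPM (4.14 ± 0.41, adjusted p = 0.000249). Both were tight in LIF/2i, apart from LIF, and called whichever library or the pair was left out.

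**Figure D3:**
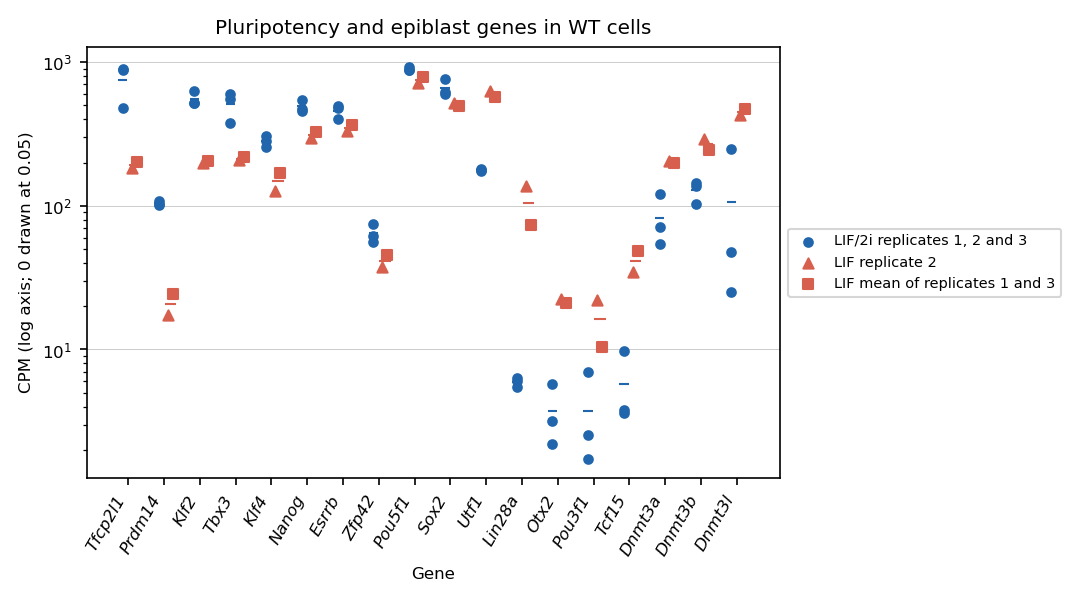
CPM (log axis) of naive, core and epiblast genes in the 3 LIF/2i samples (blue circles), LIF replicate 2 (red triangles) and the mean of LIF replicates 1 and 3 (red squares), with short lines at group means. Tfcp2l1, Prdm14 and Klf2 fall clearly, Pou5f1 and Sox2 stay close to their level in LIF/2i, and Utf1, Lin28a and Tcf15 rise.

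Markers of the formative and primed epiblast rose from low levels. Of 19 tested members 7 were called higher and 1 lower, with a median log2 fold change of 1.65. The higher members included Krt18 and Dnmt3b, which are described below with other lists. Tcf15, an FGF-responsive factor of cells leaving the naive state, measured 3.79, 3.60 and 9.73 CPM in LIF/2i against 34.7 and 48.4 CPM in LIF (2.97 ± 0.45, adjusted p = 0.00216). Otx2, a driver of the formative state, measured 2.21, 3.20 and 5.78 CPM against 22.3 and 20.9 CPM (2.60 ± 0.70, adjusted p = 0.0304). Pou3f1, which encodes OCT6, measured 1.74, 2.53 and 6.99 CPM against 22.1 and 10.4 CPM (2.24 ± 0.60, adjusted p = 0.0306). All 3 were highest in the LIF samples, and LIF/2i replicate 3 was the highest of its group for each. Fgf5, the classical epiblast marker, stayed near the limit of detection and did not pass the count filter, with 2 counts in LIF/2i and a ratio of 10.6 (exact 95% interval 2.49 to 95.1). The member called lower was Sox3, which is also a neural gene, from 10.9, 5.60 and 7.30 CPM to 1.97 and 2.53 CPM (-1.81 ± 0.49, adjusted p = 0.0311). Tcf15 kept its call whichever library was left out, while the list held 3 higher calls without LIF replicate 2 and 8 without the pair. Otx2, Pou3f1 and Sox3 missed the threshold without LIF replicate 2 (0.139, 0.272 and 0.216) or LIF/2i replicate 1 (0.121, 0.123 and 0.113), Otx2 and Pou3f1 without LIF/2i replicate 2 (0.0991 and 0.111), and Otx2 and Sox3 without the pair (0.105 and 0.124).

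Of 14 tested genes for writing and erasing DNA methylation, 2 were higher and 1, Prdm14, was lower. Dnmt3b, a de novo methyltransferase, measured 137, 145 and 104 CPM in LIF/2i against 292 and 245 CPM in LIF (log2 fold change 1.06 ± 0.22, adjusted p = 0.00908). Dnmt3a, the other de novo enzyme, measured 71.1, 54.0 and 121 CPM against 205 and 198 CPM (1.31 ± 0.31, adjusted p = 0.0181). Dnmt3l, their cofactor, measured 47.5, 25.0 and 248 CPM against 430 and 468 CPM and was not called (2.10 ± 0.66, adjusted p = 0.0564). For Dnmt3a and Dnmt3l, LIF/2i replicate 3 stood nearest to LIF. Without it the Dnmt3l change was 3.63. Dnmt3b missed the threshold without LIF replicate 2 (0.0984), and Dnmt3a without that library (0.107), LIF/2i replicate 1 or 2 (0.0776 and 0.0625) or the pair (0.0765).

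Germline genes that DNA methylation is known to silence moved in both directions. Of 29 tested members 9 were called higher and 4 lower, with a median log2 fold change of 1.30. Mael, which acts in the piRNA pathway, measured 3.16, 4.53 and 4.86 CPM in LIF/2i against 27.9 and 35.9 CPM in LIF (2.94 ± 0.57, adjusted p = 0.0065). Tdrd1, a Tudor protein of the same pathway, measured 0.158, 0.266 and 0.608 CPM against 3.64 and 4.12 CPM (3.60 ± 0.86, adjusted p = 0.018). Stra8, the gene that meiotic entry depends on, measured 40.9, 58.1 and 54.4 CPM against 206 and 244 CPM (2.14 ± 0.51, adjusted p = 0.0183). Dazl, an RNA-binding protein of germ cells, went the other way, from 261, 249 and 228 CPM to 51.2 and 40.1 CPM (-2.43 ± 0.37, adjusted p = 0.00223). The groups were apart for all 4 genes, and the calls of Mael and Dazl held whichever library or the pair was left out. Those of Tdrd1 and Stra8 were lost without LIF replicate 2 (0.0837 and 0.0776), LIF/2i replicate 1 (0.0842 and 0.0783), LIF/2i replicate 2 (0.072 and 0.0506) or the pair (0.0794 and 0.0893). The other members called higher were Ddx4, Tdrkh, Brdt, Piwil2, Tex11 and Zcwpw1, and the other members called lower were Tex101, Hormad1 and Fkbp6. The list held 2 higher and 1 lower call without LIF replicate 2 or LIF/2i replicate 1, 3 and 1 without LIF/2i replicate 2, and 1 and 2 without the pair.

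The promoters of the 2 germline genes with the largest increases are shown for their CpG content, since methylation acts on CG pairs. Both are RefSeq windows of 250 bases before to 50 after the start on GRCm38.p6, written 5′ to 3′ with each CG in capitals. Tdrd1 lies at chr19:56830462-56830761 (plus strand) and holds 3 CG pairs, and Mael lies at chr1:166238695-166238994 (minus strand) and holds 24. The median over the 26 germline list members with a window was 20.5, and over all 32851 windows of the table it was 7. The E-box CACGTG, the site that the MGA and MAX repressors of germline genes are known to bind, was in 12 of those 26 windows (46.2%), Mael among them, and in 7.15% of all windows. It reads the same on both strands, and its CG is counted among the CG pairs.
Tdrd1: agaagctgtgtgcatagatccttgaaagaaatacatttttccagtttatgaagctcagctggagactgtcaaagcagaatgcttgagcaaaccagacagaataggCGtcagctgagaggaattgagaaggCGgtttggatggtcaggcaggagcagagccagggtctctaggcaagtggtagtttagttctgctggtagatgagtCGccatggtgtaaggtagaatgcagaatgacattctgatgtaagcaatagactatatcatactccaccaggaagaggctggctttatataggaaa
Mael: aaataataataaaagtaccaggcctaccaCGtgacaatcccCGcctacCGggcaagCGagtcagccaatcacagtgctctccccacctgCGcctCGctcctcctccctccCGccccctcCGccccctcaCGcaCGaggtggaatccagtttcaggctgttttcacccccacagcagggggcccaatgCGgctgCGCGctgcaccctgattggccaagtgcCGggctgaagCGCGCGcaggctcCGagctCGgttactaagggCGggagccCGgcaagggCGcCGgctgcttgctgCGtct

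Some markers of other lineages were higher in LIF, and many of these were highest in LIF replicate 2. Trophectoderm regulators and keratins had 8 of 16 tested members higher and 1 lower (median log2 fold change 1.89). Primitive endoderm markers had 7 of 22 higher and 1 lower (median 1.47). The calls of this list were receptor, keratin and matrix genes, while the tested regulators Gata4, Gata6, Sox17, Pdgfra, Hnf4a and Dab2 were not called. In the trophectoderm list the transcription factor genes Hand1, Esx1 and Dlx3 were called higher, whereas Gata2, Gata3, Tead4 and Tfap2c were not called. Krt8, a keratin of simple epithelia, measured 2.53, 2.13 and 2.13 CPM in LIF/2i against 70.5 CPM in LIF replicate 2 and 15.4 CPM in the LIF pair (4.23 ± 0.66, adjusted p = 0.00236). Its partner Krt18 measured 3.63, 2.40 and 4.86 CPM against 93.8 and 27.0 CPM (4.11 ± 0.63, adjusted p = 0.00227). Both keratins were called with either LIF sample left out, at 2.74 and 2.94 without LIF replicate 2 and at 4.94 and 4.74 without the pair. Lrp2, an endocytic receptor of visceral endoderm, measured 48.2, 45.6 and 56.9 CPM against 616 and 430 CPM (3.39 ± 0.53, adjusted p = 0.0025). Cubn, the partner of Lrp2 in that tissue, measured 0.632, 0.533 and 6.08 CPM against 64.9 and 48.8 CPM (4.85 ± 0.72, adjusted p = 0.00193). These 2 receptors were similar in both LIF samples. Tfap2a went down, from 34.4, 20.5 and 11.9 CPM to 2.43 and 2.37 CPM (-3.22 ± 0.57, adjusted p = 0.00426, and 0.058 without LIF replicate 2). The trophectoderm list held 3 higher and 0 lower calls without LIF replicate 2, and 5 and 1 without LIF/2i replicate 2. In bulk RNA, fewer cells of a type and less RNA per cell cannot be told apart.

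Laminins and their partners were rebalanced. Of 17 tested basement membrane genes 3 were higher and 3 lower. Lamb1, a laminin β chain, measured 101, 82.6 and 115 CPM in LIF/2i against 376 and 317 CPM in LIF (log2 fold change 1.81 ± 0.20, adjusted p = 0.000483). Lamc1, a laminin γ chain, fell from 1132, 1231 and 933 CPM to 607 CPM in both LIF samples (-0.86 ± 0.14, adjusted p = 0.00287). Nid1, the protein that links laminin to collagen IV, measured 635, 476 and 702 CPM against 93.4 and 105 CPM (-2.60 ± 0.22, adjusted p = 9.51e-05). The replicates of each group were close together for all 3 genes, and the calls held whichever library or the pair was left out.

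Fibroblast and mesenchymal markers had the highest share of calls of all lists with at least 10 tested members, with 11 of 18 higher and 1 lower (median log2 fold change 2.33). Col1a2, a chain of type I collagen, measured 0.474, 0.266 and 0.304 CPM in LIF/2i against 206 CPM in LIF replicate 2 and 7.44 CPM in the LIF pair (8.16 ± 1.33, adjusted p = 0.00287). Col1a1, the other chain, measured 1.42, 1.73 and 3.04 CPM against 169 and 13.1 CPM (5.55 ± 0.86, adjusted p = 0.00236). Acta2, smooth muscle actin, measured 2.84, 2.00 and 1.52 CPM against 107 and 12.8 CPM (4.76 ± 0.74, adjusted p = 0.0024). The LIF samples differed from each other by far for these genes, yet each lay above every LIF/2i sample. The changes were 4.32, 2.74 and 2.54 without LIF replicate 2. By limma-voom Col1a2 and Col1a1 missed the threshold (adjusted p = 0.149 and 0.0598). By edgeR the list median was 2.15 without LIF replicate 2, and the list held 5 higher calls without LIF/2i replicate 1 or 2. Col3a1 and Col6a1 had 0 counts in LIF/2i and were at least 26.5-fold and 27.4-fold higher in LIF, from a floor of 3 counts over the group. Their calls were lost without LIF replicate 2 (0.26 and 0.174), LIF/2i replicate 1 (0.0842 and 0.0665) or LIF/2i replicate 2 (0.0792 and 0.0626). Fn1, the fibronectin gene that embryonic stem cells also express, moved against the list, from 5255, 4268 and 4998 CPM to 1589.6 and 1858 CPM (-1.49 ± 0.18, adjusted p = 0.000807). Of all genes called higher in the comparison, 45 differed more than 4-fold between the LIF samples, and 44 of these were highest in LIF replicate 2. The part of other cell types in the results was not tested.

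Neural and mesendoderm markers gave calls that were few in number, from short lists of tested genes. Of 14 tested neural genes 3, Olig2, Pax6 and Map2, were higher (21.4%, beside 6.30% of all tested genes) and 0 lower. The median log2 fold change of the 14 was 0.21. Of 16 mesendoderm genes only 5 passed the count filter, and 1 of these was called higher and 1 lower. Olig2 was the single neural call without LIF replicate 2, LIF/2i replicate 2 or the pair, where Pax6 reached 0.0572 to 0.0658 and Map2 0.109 to 0.214. Map2 also missed the threshold without LIF/2i replicate 1 or 3 (0.076 and 0.0839). Olig2, a neural progenitor factor, measured 6.95, 11.7 and 11.3 CPM in LIF/2i against 24.3 and 26.7 CPM in LIF (1.36 ± 0.25, adjusted p = 0.00517). Gsc, an organiser homeobox gene, fell from 8.53, 4.53 and 5.47 CPM to 0.455 and 0.475 CPM (-3.68 ± 0.57, adjusted p = 0.00231). T, the brachyury gene, was at 1.11 CPM or less in all 5 samples (-0.13 ± 0.96, adjusted p = 0.956), and its sign changed with the libraries used.

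Signals of the TGFβ superfamily split by ligand. Bmp4, the ligand that sustains Id genes, measured 0.790, 0.533 and 0 CPM in LIF/2i against 38.0 and 28.9 CPM in LIF (log2 fold change 5.97 ± 0.69, adjusted p = 0.000568). Id1, a target of BMP signalling, measured 2.69, 2.40 and 2.13 CPM against 18.8 and 5.94 CPM (2.34 ± 0.49, adjusted p = 0.00908, and 0.199 without LIF replicate 2). Of 15 tested BMP and Id genes 4 were higher and 1, Tbx3, was lower, and without LIF replicate 2 there were 2 higher and 0 lower calls. Nodal, the ligand of the activin branch, fell from 165, 129 and 150 CPM to 75.2 and 62.9 CPM (-1.10 ± 0.17, adjusted p = 0.00236). Lefty2, an inhibitor that Nodal induces, fell from 62.2, 28.8 and 24.3 CPM to 5.31 and 2.69 CPM (-3.26 ± 0.60, adjusted p = 0.00517, and 0.0577 without the pair). These were the 2 called of 15 tested Nodal pathway genes, both lower. The calls of Bmp4 and Nodal held whichever library was left out.

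LIF was present in both media, and LIF receptor and STAT3 genes showed no common direction, with 2 of 17 tested members higher and 3 lower (median log2 fold change -0.11). The higher ones were Cebpb (2.28 ± 0.44, adjusted p = 0.00631) and Junb (1.54 ± 0.35, adjusted p = 0.0147), both immediate early responders to several pathways. The lower ones were Klf4, Tfcp2l1 and Bcl3. Cebpb missed the threshold without LIF replicate 2 (0.0719), as did Junb (0.0736) and Bcl3 (0.235).

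**Figure D4:**
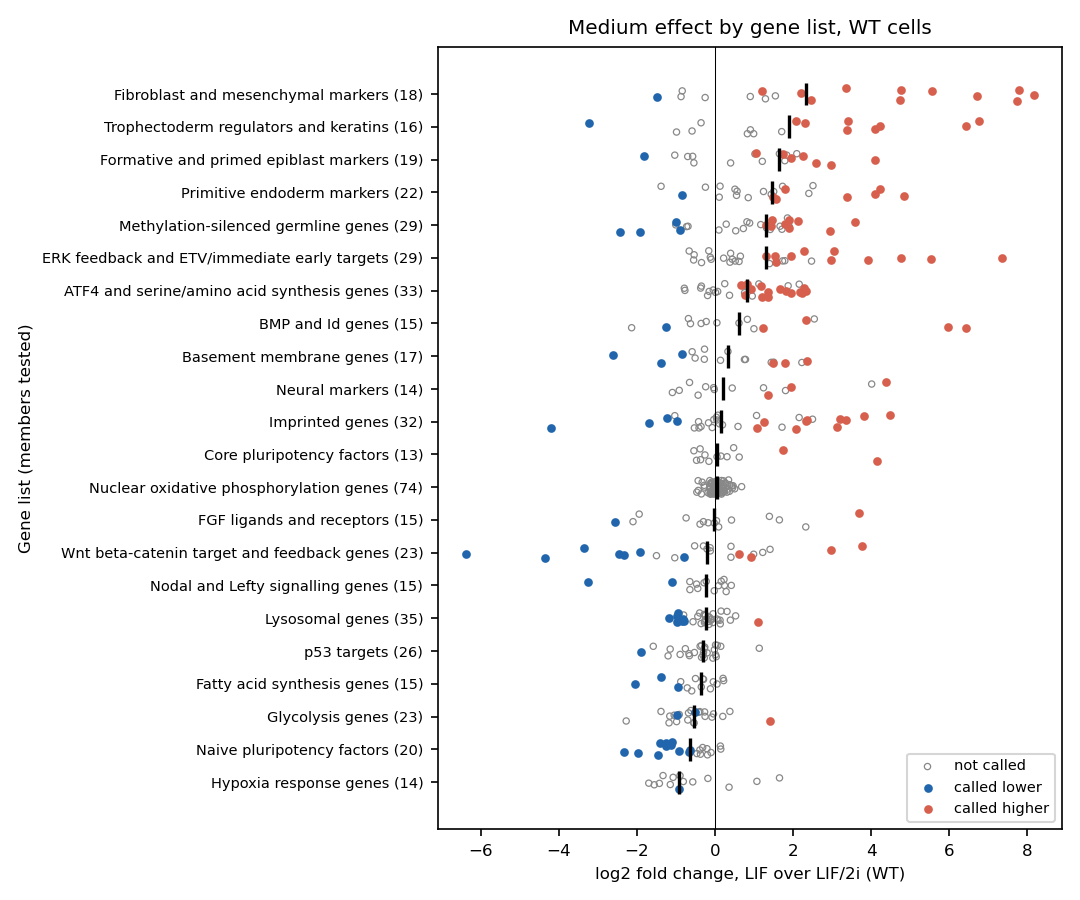
Log2 fold change of LIF over LIF/2i in WT cells (horizontal axis) for the tested members of 22 gene lists, with 1 point per gene, filled where called, and a black bar at each list median. The fibroblast, trophectoderm and epiblast lists lie to the right, the naive factors to the left, and the 74 oxidative phosphorylation genes cluster at 0.

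Genes of amino acid synthesis and transport that ATF4 controls rose in WT cells. ATF4 is translated when eIF2α is phosphorylated, so the study's interest in eIF2α bears on this list. Of 33 tested members 15 were called higher and 0 lower, with a median log2 fold change of 0.81. Psat1, an enzyme of serine synthesis, measured 60.7, 77.7 and 90.3 CPM in LIF/2i against 181 and 303 CPM in LIF (1.67 ± 0.22, adjusted p = 0.000968). Trib3, a pseudokinase induced by ATF4, measured 8.21, 11.5 and 8.21 CPM against 41.2 and 47.6 CPM (2.24 ± 0.31, adjusted p = 0.00126). Atf5, a related stress factor, measured 13.4, 11.3 and 10.9 CPM against 43.8 and 48.4 CPM (1.95 ± 0.30, adjusted p = 0.00236). The groups were apart for all 3 genes, which kept their calls whichever library or the pair was left out, as did Slc7a5, a subunit of the large neutral amino acid transporter (0.92 ± 0.16, adjusted p = 0.00374). Atf4 itself measured 258, 259 and 213 CPM against 387 and 391 CPM (0.68 ± 0.20, adjusted p = 0.0427), a call lost without any 1 LIF/2i library, LIF replicate 2 or the pair (0.085 to 0.181). The list held 9 higher calls without LIF replicate 2, 10 without LIF/2i replicate 1, and 5 higher and 1 lower without the pair.

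The KI cells, which share no sample with the WT comparison, gave 1 higher and 2 lower calls among the same 33 genes, near the KI background of 4.05% and 5.00%, and a median of 0.09. The fit with the KI replicate number as a block gave 2 higher and 3 lower, beside 6.27% and 7.32% of all tested genes. Psat1 measured 72.6, 92.4 and 79.6 CPM in KI LIF/2i against 97.3, 97.0 and 103 CPM in KI LIF (log2 fold change 0.28 ± 0.20, adjusted p = 0.441). Trib3 measured 7.10, 15.7 and 12.9 CPM against 18.0, 22.1 and 21.6 CPM (0.80 ± 0.28, adjusted p = 0.107), and was called with the block (0.84 ± 0.23, adjusted p = 0.0331). The direction was the same as in WT and the size smaller. The difference between the genotypes did not pass the test for any member of the list, with a smallest adjusted p of 0.393 for the interaction, or 0.0917 with the block.

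Among genes of energy metabolism, those of respiration gave few or no calls. Respiration itself was not measured. None of 74 tested nuclear oxidative phosphorylation genes and none of 13 mitochondrially encoded genes was called by edgeR, with medians of 0.05 and 0.37 on the log2 scale. At an unadjusted p under 0.05 there were 8 and 1, DESeq2 called 3 and 0, limma-voom called 0 in both lists, and library totals in place of TMM gave 2 higher calls among the 74. Glycolysis genes had 20 of 23 tested members below 0 and a median of -0.54, but only Hk1 and Slc2a3 were called lower and Pdk1 higher. Hk1, the housekeeping hexokinase, measured 284, 257 and 293 CPM in LIF/2i against 152 and 132 CPM in LIF (-0.97 ± 0.20, adjusted p = 0.00938). Pdk1, the kinase that shuts pyruvate out of mitochondria, measured 66.2, 33.2 and 88.8 CPM against 145 and 183 CPM (1.40 ± 0.31, adjusted p = 0.0123). The median of hypoxia response genes was -0.91, and 1 of the 14 tested was called lower. Leaving out LIF/2i replicate 2 brought the lower calls to 8 glycolysis and 5 hypoxia genes. The summed glycolysis level was 3644 CPM in that library, against 4747 and 6486 CPM in the other LIF/2i samples and 3259.5 and 3268 CPM in LIF. Hk1 and Pdk1 missed the threshold without LIF replicate 2 (0.0635 and 0.0514) or the pair (0.0898 and 0.0919).

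Lipid and lysosomal genes moved down where they moved. Acacb, which makes the malonyl-CoA that limits fatty acid oxidation, fell from 325, 236 and 166 CPM to 50.0 and 67.7 CPM (log2 fold change -2.04 ± 0.33, adjusted p = 0.00277). Of 15 tested fatty acid synthesis genes 3 were lower and 0 higher, with 1 lower left without LIF replicate 2, LIF/2i replicate 1 or the pair. Lysosomal genes had 7 of 35 lower and 1 higher, and among the lower ones were the protease gene Ctsa (-0.96 ± 0.17, adjusted p = 0.00463), the β-galactosidase gene Glb1 (-0.98 ± 0.17, adjusted p = 0.00382) and the progranulin gene Grn (-0.81 ± 0.17, adjusted p = 0.0096). Ctsa lost its call without the pair (0.0591), Glb1 without LIF replicate 2 (0.0622), and Grn without either (0.0808 and 0.0791). There were 3 lower lysosomal calls without LIF replicate 2 and 2 without the pair. Cdkn1a, the cell cycle inhibitor p21, was the single call among 26 tested p53 targets and fell from 173, 207 and 158 CPM to 64.4 and 32.5 CPM (-1.89 ± 0.30, adjusted p = 0.0025). It and Acacb were called whichever library was left out.

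Imprinted genes moved in both directions. Of 32 tested members 10 were higher and 4 lower, with a median log2 fold change of 0.15. Plagl1, a zinc finger regulator of an imprinted gene network, fell from 299, 234 and 170 CPM in LIF/2i to 14.7 and 10.7 CPM in LIF (-4.21 ± 0.42, adjusted p = 0.000249). Mest, expressed from the paternal copy, rose from 29.5, 27.6 and 30.4 CPM to 333 and 177 CPM (3.13 ± 0.26, adjusted p = 9.51e-05). Snrpn, also paternally expressed, rose from 18.0, 21.3 and 22.2 CPM to 50.0 and 48.4 CPM (1.27 ± 0.16, adjusted p = 0.000857). The groups were far apart in all 3 genes, and the calls held whichever library was left out. The list held 2 higher and 2 lower calls without LIF replicate 2, 4 and 2 without LIF/2i replicate 2, and 2 lower calls without LIF/2i replicate 1 or the pair.

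Adhesion genes also went both ways, with 4 of 22 tested members higher and 5 lower, or 2 and 3 without LIF replicate 2. Cdh1, which encodes E-cadherin, fell from 805, 788 and 871 CPM to 346 and 378 CPM (log2 fold change -1.18 ± 0.16, adjusted p = 0.0013). Itga3, a laminin receptor subunit, rose from 32.2, 30.9 and 37.4 CPM to 226 and 162 CPM (2.54 ± 0.25, adjusted p = 0.000249). Rhox6 and Rhox9, X-linked homeobox genes of placenta and germ cells, rose to 23.3 and 16.0 CPM and to 17.4 and 11.6 CPM in LIF, from at most 1.22 CPM in LIF/2i. The Rhox changes were 4.44 ± 0.43 (adjusted p = 0.000226) and 3.86 ± 0.61 (adjusted p = 0.0025), and reads of this multigene family may be split between copies. All 4 genes were called whichever library or the pair was left out.

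The same change of medium in KI cells called 536 genes higher (4.05%) and 661 lower (5.00%) in LIF. With the replicate number as a block, a choice made after seeing the data, the counts were 830 (6.27%) and 968 (7.32%). Of the 834 genes higher in WT, 813 (97.5%) had the same sign in KI and 335 (40.2%) were called the same way, or 418 with the block. Of the 880 genes lower in WT, 850 (96.6%) had the same sign and 428 (48.6%) were called the same way, or 503 with the block. The called shares stand beside the KI background of 4.05% and 5.00%, or 6.27% and 7.32% with the block. For the shared signs, the median KI change over all tested genes was -0.03. The KI values come from samples that the WT comparison did not use. The median change of the genes called in WT was 2.01 in WT against 1.16 in KI upward, and -1.33 against -0.88 downward. Of the genes called in WT, 727 of the higher and 711 of the lower had the smaller absolute change in KI. Since the genes were chosen on WT values, a smaller change in KI carries no test. Myo7a, a myosin gene, was the single gene called in opposite directions, at -1.10 ± 0.29 in WT (adjusted p = 0.0271) and 1.20 ± 0.34 in KI (adjusted p = 0.0455). Its interaction did not pass the test (adjusted p = 0.393).

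Among the genes described above, the KI change was larger than in WT for some and smaller for others. Tfcp2l1 fell by 2.41 on the log2 scale in KI and Prdm14 by 2.22, beside 1.98 and 2.33 in WT. Dusp6 rose by 3.05 in KI beside 3.91 in WT. Nanog measured 568, 636 and 687 CPM in KI LIF/2i against 289, 248 and 220 CPM in KI LIF (-1.32 ± 0.14, adjusted p = 0.000426), beside -0.66 in WT. Spry4 measured 16.0, 6.60 and 19.3 CPM against 50.5, 79.3 and 93.5 CPM (2.42 ± 0.40, adjusted p = 0.0034), with KI LIF/2i above WT LIF/2i and overlapping levels in LIF. Rhox6 measured 1.88, 2.49 and 2.69 CPM against 2.77, 4.38 and 2.96 CPM (0.56 ± 0.38, adjusted p = 0.421). None of these differences between genotypes passed the test. By edgeR the interaction called no gene (0% of those tested), with a smallest adjusted p of 0.135, reached by Rhox6 and Paqr8, and 791 genes had an unadjusted p under 0.05. DESeq2 called 9 genes higher and 13 lower, and limma-voom none.

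**Figure D5:**
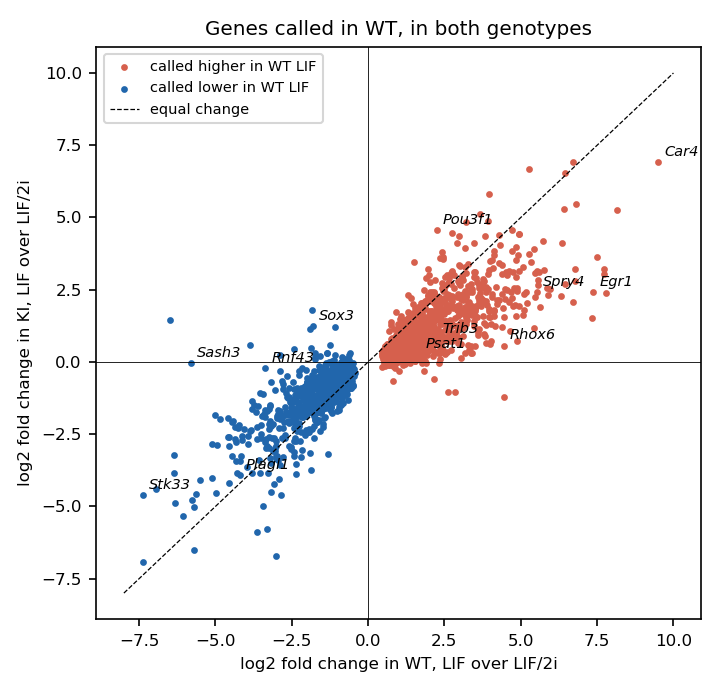
Log2 fold change of LIF over LIF/2i in KI cells (vertical axis) against that in WT cells (horizontal axis) for the 834 genes called higher (red) and 880 called lower (blue) in WT, with a dashed line where both are equal. Of the red points 813 lie above 0 in KI and of the blue points 850 lie below 0, and most lie nearer to 0 in KI than in WT.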

How the data were processed

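RNA-seq was measured in 12 libraries of mouse embryonic stem cells. Per the labels' protocols, RNA came from the supernatant of a lysate, was depleted of ribosomal RNA, fragmented and then made into libraries in the same way as ribosome footprints. The authors deposited raw counts per gene over coding sequence, per the file headers. Per the submitters' processing notes, cutadapt 3.4, Bowtie 1.3.0 and UMI-tools 1.0.1 were used, in roles that are not given. The sources used here do not give the build, annotation, counting tool or strand setting, so genes that overlap or share sequence are uncertain. Transcripts were matched to GENCODE M21 (22155 of 22416).

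WT LIF replicates 1 and 3 were averaged, leaving 11 samples. Genes were kept with filterByExpr (minimum count 10), scaled by TMM and fitted in edgeR 4.0.16 (R 4.3.3) with 1 mean per group over all 4 groups. The test was the quasi-likelihood F test (two-sided, Benjamini-Hochberg at 0.05). The common dispersion, estimated over all 4 groups before the test, gave a biological coefficient of variation of 0.234. Standard errors come from the F statistic. The scripts were tested on simulated data.

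The comparison, gene lists and named-gene rule were chosen with earlier results of these data known. Some genes, Krt18, Dnmt3b and Myc among them, were shared between lists, so the lists are not independent of each other. The rule took the 10 largest called changes per direction (at least 5 CPM, no overlap, no predicted, clone or pseudogene symbols), up to 6 called members per list, a panel of 29 pluripotency and signalling genes, and members that a list's count turned on. Egr2, Egr3, Myo7a and Paqr8 were named after their values were seen, and Tdrd1, Mael and Sp5 are the called germline and Wnt genes with the largest changes and a promoter that can be shown.

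Same-numbered KI samples deviated together across media (correlations 0.5, 0.37 and 0.22), a pairing seen in the data but named by no label. KI LIF replicate 3 correlated nearly as well with KI LIF/2i replicate 2 (0.21), so the pairing of those numbers is uncertain. Alternatives were DESeq2 1.42.0, limma-voom (limma 3.58.1), other scalings and filters, testing against a 1.5-fold change, fitting the compared groups alone, counting all libraries separately, a replicate block, and leaving out each library. The block in KI alone was chosen after seeing the data.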

Additional observations from a re-analysis of the deposited data

How the results depend on the processing

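None of the 175 called genes that were followed changed direction under any alternative run that fitted them, while 3 of 10 uncalled ones did (T, Spry2 and Ccnd1, none called there). For called genes a kept direction was nearly given with a library left out, since their groups rarely overlapped. Of the 175, 57 stayed called whichever WT library or the agreeing pair was left out. Leaving out 1 library gave 201 to 889 higher and 189 to 886 lower genes in WT, and 211 to 503 and 287 to 597 in KI. Where an arm then held 1 sample, it was assumed to vary like the other groups. Limma-voom ended the calls of 11 of the genes followed, Egr1, Col1a2, Col1a1 and Sp5 among them, and the test against a 1.5-fold change those of 75. With no count filter Otx2, Stra8, Jun, Axin2 and Zfp42, among others, missed the threshold (0.0513 to 0.0807 for these). Without both agreeing libraries WT had 439 higher and 327 lower. A test against a 1.5-fold change gave 379 and 336 in WT and 185 and 198 in KI, as its construction demands more. Fitting only the KI groups gave 354 and 393. Counting all 12 libraries separately gave 1240 higher and 1497 lower in WT and 1 higher interaction call. With the replicate block over those libraries there were 1710 and 1959 calls in WT, 1063 and 1123 in KI, and 16 and 14 for the interaction. Same-numbered WT samples correlated weakly (0.039, 0.13 and 0.05). LIF replicates 1 and 3 agree within sampling noise, so these values cannot tell whether numbers 1 and 3 pair. LIF/2i replicate 2 correlated at 0.13 with LIF replicate 2 and at -0.11 and -0.093 with LIF replicates 1 and 3. A pairing of the WT samples was not tested. The replicate block in KI alone gave 830 higher and 968 lower calls in KI, and moved WT to 1275 and 1402 through the shared estimate of spread. The interaction had 9 and 13 calls by DESeq2 and 1 lower call without the agreeing pair. Library totals in place of TMM moved the share of WT calls that were higher from 48.7% to 57.1%. Depth limits the lowest genes: 131 of the genes called higher had at most 3 counts in each LIF/2i library, and 42 of those called lower at most 3 in each LIF library.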

Other observations

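The X chromosome held a larger share of genes called higher in LIF than any other chromosome. Of 453 tested X-linked genes 52 were higher (11.5%) and 36 lower (7.95%), beside 6.30% and 6.65% of all genes tested. Y-linked transcripts differed between replicates of both media, and their part in this was not tested.

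Among cholesterol synthesis genes, Ebp, a sterol isomerase, fell from 93.3, 81.5 and 47.4 CPM to 28.3 and 24.1 CPM (log2 fold change -1.50 ± 0.35, adjusted p = 0.0166). The call of Ebp was lost without LIF replicate 2 (0.0994), LIF/2i replicate 1 (0.0639) or the pair (0.124). The p53, NRF2, cyclin and class I MHC lists had at most 3 called members each in either direction.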
